A study of Mus musculus with 2 samples.

Results

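The 8 genes described here make, carry or break down the small amine messengers and GABA: Th, Ddc, Gad1, Gad2, Tph1, Tph2, Slc18a2 and Maob. They were taken as a list by gene symbol from 33038 genes counted in mouse pancreatic islets. Islets of C57BL/6J males aged 8 weeks, with no treatment and no genetic change named, were freed with collagenase, handpicked and dissociated with trypsin, and the cells of that 1 preparation gave 2 libraries by RevGel-seq, a single-cell RNA-seq method in which cells are held in a reversible hydrogel instead of droplets. The libraries are technical replicates, so every error and p-value below measures the spread between 2 libraries of 1 preparation and not between mice. Library 1 held 735 cells with a median of 17340 UMIs (unique molecular identifiers, each standing for 1 captured transcript), and library 2 held 748 cells with a median of 18922, with 0 cell barcodes in common.

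Cells were grouped by which of insulin (Ins1 and Ins2 together), Gcg, Sst and Ppy, the genes of the hormones of beta, alpha, delta and gamma cells, reached 1% of the UMIs of the cell. In libraries 1 and 2, in this order, 182 and 190 cells were insulin only, 182 and 174 Gcg only, 35 and 23 Sst only, and 54 and 68 Ppy only. Gcg and Ppy together marked 65 and 86 cells, Sst and Ppy 77 and 71, and 91 and 92 cells had no hormone at that level. The 64 cells with insulin plus another hormone and the 29 cells with both Gcg and Sst entered no comparison. Levels are given as CPM, the counts of a gene scaled to 1000000 UMIs of the summed cells of a group with the UMIs of the 5 hormone genes left out, because the insulin genes alone took a large part of the UMIs of insulin-only cells (a median of 36.5 to 42.1% in cells with or without Gad1).

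The 4 single-hormone groups carried the markers of the cells they are named for. The summed level of 8 beta cell markers, among them Mafa and Iapp, was 55617 and 57159 CPM in insulin-only cells, against 2027 and 1895 in Gcg-only cells. The 7 alpha cell markers summed to 47402 and 48976 CPM in Gcg-only cells, the 5 delta cell markers to 6871 and 6708 in Sst-only cells, and the 5 gamma cell markers to 54203 and 41582 in Ppy-only cells. Sst-only cells also carried 15299 and 15541 CPM of the beta list and 12772 and 13061 of the gamma list, both above their own delta list. The no-hormone cells held 4227 and 5337 CPM of 6 endothelial markers and 3273 and 3364 CPM of 7 leukocyte markers. They also held 2162 and 510 CPM of 6 mesenchymal markers, 1705 and 580 of 5 ductal and 3684 and 901 of the 5 gamma cell markers. They are thus a mixture that differed between the libraries, and their values are given below as the level in cells without a hormone.

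Tyrosine hydroxylase (Th) turns tyrosine into L-DOPA, the rate-limiting step towards dopamine, noradrenaline and adrenaline, and aromatic L-amino acid decarboxylase (Ddc) turns L-DOPA into dopamine and 5-hydroxytryptophan into serotonin. The tryptophan hydroxylases Tph1 and Tph2 start serotonin synthesis, the glutamate decarboxylases Gad1 and Gad2 make GABA from glutamate, the vesicular transporter VMAT2 (Slc18a2) loads monoamines into secretory vesicles, and monoamine oxidase B (Maob) breaks monoamines down on the outer mitochondrial membrane. Islet endocrine cells are known to take up L-DOPA and make dopamine, and beta cells are known to make GABA and, in pregnancy, serotonin.

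All 8 genes were found in the annotation of mouse build GRCm38. Th lies on the minus strand at chr7:142892752-142931128, with 149 kb between its end and that of Ins2, and no other annotated gene overlaps it. Ddc lies at chr11:11814101-11898144 on the minus strand and overlaps 1700042O10Rik of the other strand, which held 86 UMIs. Gad1 is at chr2:70553072-70602014 on the plus strand, overlapped by the antisense gene Gad1os with 3 UMIs, and Slc18a2 is at chr19:59260896-59296012 on the plus strand, overlapped by Gm29261 with 0 UMIs. Whether counting used the strand is not given in the sources used here, so reads of such pairs cannot be told apart. Maob is on the X chromosome at chrX:16709282-16817366, minus strand, Gad2 at chr2:22622205-22693874, plus strand, Tph1 at chr7:46644641-46672537 and Tph2 at chr10:115078641-115185022, both minus strand.

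The promoter windows of Th, Ddc and Gad1, which differed between hormone groups, and of Slc18a2 are shown so that the cells' different use of these genes can be set beside the sequence at their start sites. Each holds 250 bases before and 50 after the annotated RefSeq start (GRCm38.p6), 5′ to 3′ on the strand of the gene, and capitals mark 1 of 3 motifs searched on both strands: the cAMP response element TGACGTCA, the TATA box TATAAA and the homeodomain core TAATTA. Of 32851 mouse promoter windows of this length, 588 (1.79%) held the first, 4473 (13.6%) the second and 1738 (5.29%) the third.
Th, chr7:142899946-142900245, minus strand: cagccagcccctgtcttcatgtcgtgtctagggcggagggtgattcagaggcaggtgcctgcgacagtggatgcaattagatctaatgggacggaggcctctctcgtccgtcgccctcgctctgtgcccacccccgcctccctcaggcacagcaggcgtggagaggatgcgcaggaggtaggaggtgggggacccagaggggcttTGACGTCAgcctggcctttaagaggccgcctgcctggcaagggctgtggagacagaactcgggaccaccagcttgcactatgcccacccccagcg
Slc18a2, chr19:59260628-59260927, plus strand: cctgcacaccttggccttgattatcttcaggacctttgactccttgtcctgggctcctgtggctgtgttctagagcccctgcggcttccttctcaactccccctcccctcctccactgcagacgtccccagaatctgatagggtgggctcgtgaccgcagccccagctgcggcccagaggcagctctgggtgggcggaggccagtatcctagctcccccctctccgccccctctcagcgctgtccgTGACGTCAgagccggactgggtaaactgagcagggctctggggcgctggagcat
Ddc, chr11:11898095-11898394, minus strand: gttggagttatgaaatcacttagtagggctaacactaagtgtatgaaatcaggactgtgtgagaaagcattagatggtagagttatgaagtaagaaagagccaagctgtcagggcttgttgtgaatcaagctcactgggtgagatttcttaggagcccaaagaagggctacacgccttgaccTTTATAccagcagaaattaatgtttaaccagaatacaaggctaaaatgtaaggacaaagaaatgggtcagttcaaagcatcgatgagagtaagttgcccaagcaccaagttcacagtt
Ddc, chr11:11890359-11890658, minus strand: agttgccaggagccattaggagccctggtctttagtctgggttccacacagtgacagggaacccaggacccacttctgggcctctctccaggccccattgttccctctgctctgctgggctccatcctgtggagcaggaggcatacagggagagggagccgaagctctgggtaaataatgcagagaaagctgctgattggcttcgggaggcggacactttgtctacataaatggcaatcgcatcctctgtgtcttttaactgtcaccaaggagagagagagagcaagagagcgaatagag
Gad1, chr2:70561879-70562178, plus strand: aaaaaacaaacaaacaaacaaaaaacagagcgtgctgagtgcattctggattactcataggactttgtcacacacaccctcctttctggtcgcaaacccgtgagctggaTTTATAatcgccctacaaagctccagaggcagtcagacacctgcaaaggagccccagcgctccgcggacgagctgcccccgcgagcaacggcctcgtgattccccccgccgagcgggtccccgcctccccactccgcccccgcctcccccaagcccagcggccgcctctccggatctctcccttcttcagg
The Th and Slc18a2 windows each held the cAMP response element, beginning 45 and 4 bases before the start. A TATA box on the opposite strand (so printed as its reverse complement) lay 68 bases before the first Ddc start and 141 bases before the Gad1 start, and the second Ddc window held none of the 3 motifs. In Tph2 a TATA box lay 30 bases before the start, in 1 of 2 windows of Tph1 the homeodomain core lay 234 bases before it, and the Gad2 window held none of the motifs. These matches describe letters only.

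Over both libraries, Ddc gave 8310 UMIs in 943 of 1483 cells, Maob 2854 in 818, Gad1 362 in 162 and Th 221 in 124. Slc18a2 gave 177 UMIs in 92 cells, Tph2 26 in 22, Gad2 12 in 4 and Tph1 1 UMI in 1 cell. Insulin-only cells held 90.9% of all Gad1 UMIs and 72.9% of all Th UMIs, but 45.3% of those of Maob, 43.2% of those of Ddc and 11.9% of those of Slc18a2. Of the 8 genes, 5 (Th, Ddc, Gad1, Slc18a2 and Maob) passed the filter on low counts and were tested with edgeR's quasi-likelihood test on the UMIs summed per library and group, adjusted over 14955 genes. The other 3 are given as counts.

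**Figure D1:**
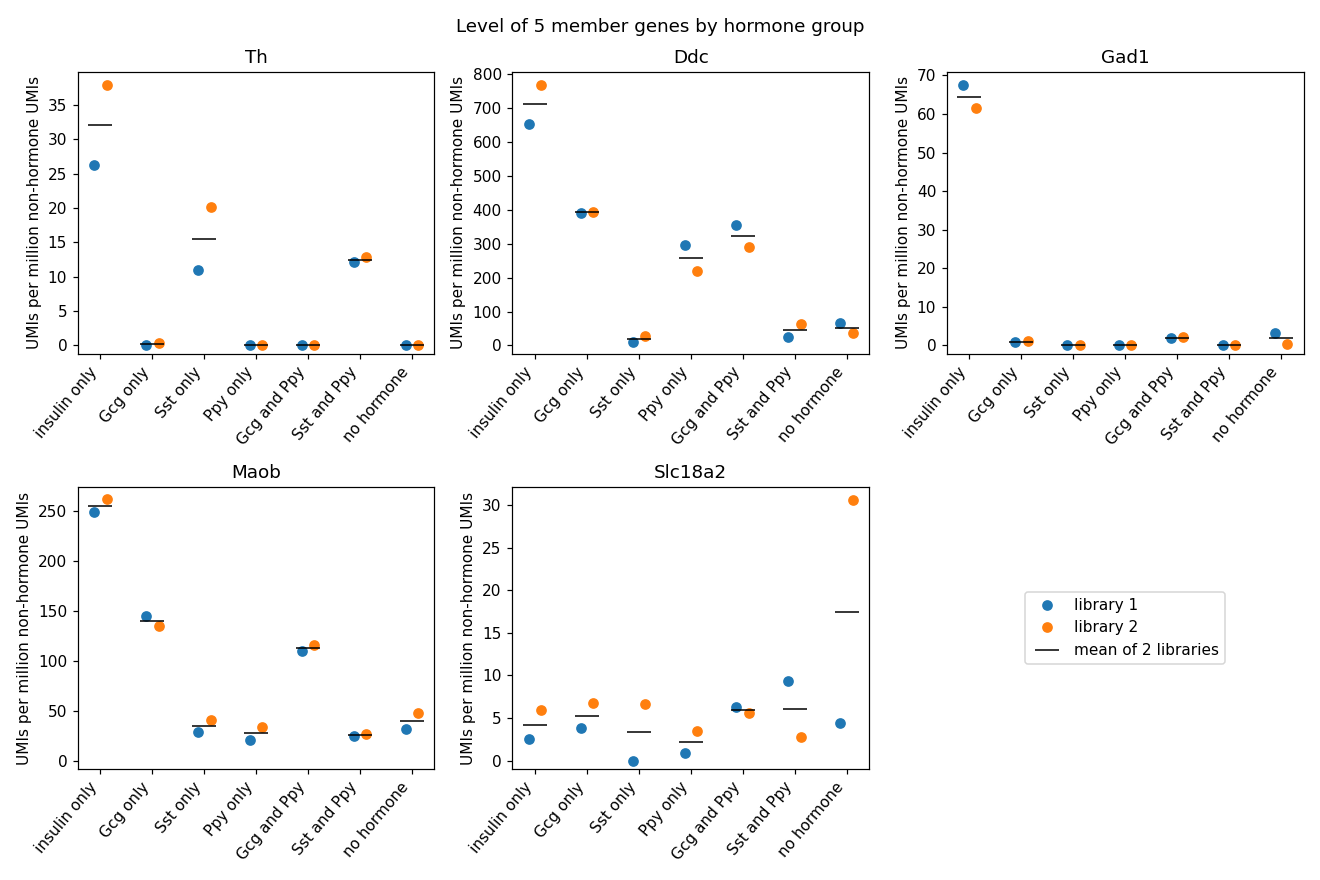
Level of Th, Ddc, Gad1, Maob and Slc18a2 in CPM without hormone UMIs (vertical axis, linear, a different scale for each gene) in 7 hormone groups, each point 1 library and each line the mean of both. Gad1 stood near 65 CPM in insulin-only cells and at or under 3.14 elsewhere, Ddc and Maob were high in insulin-only and Gcg-only cells, and the highest Slc18a2 point is library 2 of the no-hormone cells.

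Th, the first enzyme of the catecholamine pathway, was highest in insulin-only cells and was also found in cells with Sst. In insulin-only cells its level was 26.2 CPM in library 1 and 37.9 in library 2 (32.1 ± 8.27, SD, n = 2), in Sst-only cells 11.0 and 20.1, and in cells with Sst and Ppy 12.1 and 12.8. Gcg-only cells held 0 UMIs in library 1 and 1 UMI in library 2 (0.354 CPM), and the Ppy-only, the Gcg and Ppy, and the no-hormone cells held 0 in both libraries. Thus the groups with insulin or Sst alone, or Sst and Ppy, stood above all the others in both libraries.

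The Th level of insulin-only cells was above that of Gcg-only cells by a ratio of 173 in summed UMIs (95% counting interval 30.5 to 6857, since Gcg-only cells held 1 UMI, edgeR adjusted p = 1.69e-05). Against Ppy-only cells it was at least 30.3-fold higher (edgeR adjusted p = 6.14e-05), taking 3 UMIs over both libraries as the most that 0 allows. Sst-only cells were above Gcg-only cells by a ratio of 79.6 (interval 11.6 to 3425, edgeR adjusted p = 0.00159). With 3 UMIs given to Ppy-only cells, they were 14.0-fold above those (edgeR adjusted p = 0.00371). The Sst-only value rests on 11 UMIs in 4 cells, with 4 of 5 UMIs in 1 cell of library 1 and 5 of 6 in 1 cell of library 2. The interval takes UMIs as independent and the fold leaves out the error of the 11 UMIs, so neither covers the spread between cells. Between insulin-only and Sst-only cells, the neighbours at the top of the order, the 2 libraries of each did not overlap but the difference did not pass the test (log2 fold change 1.26, SE 0.55, adjusted p = 0.162).

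Th was detected in a minority of insulin-only cells, a share that depended on depth. In library 1 it was detected in 42 of 182 insulin-only cells (23.1%, 95% Clopper-Pearson interval 17.2 to 29.9) and in library 2 in 47 of 190 (24.7%, 18.8 to 31.5), against 0 of 91 and 0 of 92 no-hormone cells, which allows shares of up to 3.30 and 3.26%. Such intervals and limits cover counting error only. The median depth was 19642 and 17170 UMIs in insulin-only cells and 13195 and 15015 in no-hormone cells. With every cell thinned to 4000 UMIs the shares of insulin-only cells were 7.69 and 8.42%, and those of no-hormone cells stayed at 0. No insulin-only cell held more than 5 Th UMIs, and the 3 richest cells held 21.1 and 16.7% of the Th UMIs of insulin-only cells.

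Most Th-positive cells among Sst cells (with or without Ppy) carried the delta cell gene Hhex, as did most Th-negative ones. There were 11 Th-positive cells in library 1 and 7 in library 2. Hhex, a transcription factor of delta cells, was detected in 10 and 7 of them, and in 88.1 and 89.7% of the Th-negative Sst cells. Mafa, a transcription factor of beta cells, was detected in 0 of the Th-positive cells. It was in only 3 and 2 of the far more numerous Th-negative cells, too rarely to tell them apart. The grouping itself kept insulin under 1% of UMIs in all these cells. Its median share was 0.255 and 0.166% in the Th-positive cells, against 0.215 and 0.198% in the Th-negative ones. The median depth of the Th-positive cells was 13539 and 12484 UMIs, against 13233 and 14782. Doublets were called in 0 of them, and in 2 and 0 of the Th-negative cells. The share of cells with Th in the Sst and Ppy group was 11.7% (9 of 77, interval 5.49 to 21.0) and 7.04% (5 of 71, 2.33 to 15.7).

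Ddc, the decarboxylase shared by the dopamine and serotonin pathways, was broad: high in insulin-only cells, lower in Gcg-only and Ppy-only cells, and near the no-hormone level in Sst cells. Insulin-only cells gave 653 CPM in library 1 and 769 in library 2 (711 ± 82.3), Gcg-only cells 392 and 394 (393 ± 1.33), cells with Gcg and Ppy 354 and 291 (323 ± 44.2) and Ppy-only cells 295 and 219 (257 ± 53.8). No-hormone cells gave 66.0 and 36.1 CPM, cells with Sst and Ppy 26.0 and 64.0, and Sst-only cells 8.79 and 26.8, from 4 and 8 UMIs. In this order the libraries of insulin-only cells did not overlap those of any other group. The Gcg and Ppy cells overlapped the Ppy-only cells, and lay below the Gcg-only cells by less than the test could call (adjusted p = 0.987), the Sst and Ppy cells overlapped both the no-hormone and the Sst-only cells, which did not overlap each other, and every library of the 4 upper groups was above every library of the 3 lower ones.

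In the edgeR fit Ddc was higher in insulin-only than in Sst-only cells by a log2 fold change of 5.62 (SE 0.45, adjusted p = 6.94e-07) and than in Ppy-only cells by 1.53 (SE 0.27, adjusted p = 0.000811). It was also higher in Gcg-only than in Sst-only cells by 4.73 (SE 0.47, adjusted p = 6.17e-06) and lower in Sst-only than in Ppy-only cells, by -4.09 (SE 0.49, adjusted p = 5.67e-05). Sst-only cells thus stood below each of the other 3 single-hormone groups. Their 12 UMIs make the size uncertain: without library 1 or library 2 the values were 4.95 and 6.16 against insulin-only cells, 3.93 and 5.41 against Gcg-only cells, and -3.06 and -4.99 against Ppy-only cells.

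The Ddc difference between insulin-only and Gcg-only cells was smaller, 0.89 (SE 0.26, adjusted p = 0.0198), and this call was lost in 5 of 16 other fits with the same direction throughout. It was lost with hormone UMIs counted in the library size (0.54, adjusted p = 0.118), with equal numbers of cells in every sum (0.71, adjusted p = 0.132), without insulin-only library 2 (0.77, adjusted p = 0.151), and without Gcg-only library 1 (0.91, adjusted p = 0.129) or library 2 (0.91, adjusted p = 0.134). Between Gcg-only and Ppy-only cells the difference of 0.64 (SE 0.27) did not pass the test (adjusted p = 0.173). It passed when the no-hormone sum of library 1 or 2 was left out of the shared fit (0.65, adjusted p = 0.00416 and 0.00421).

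Most insulin-only cells held Ddc: 89.6% (163 of 182, interval 84.2 to 93.6) and 91.6% (174 of 190, 86.7 to 95.1). Gcg-only cells held it in 79.1 and 72.4%, Ppy-only cells in 72.2 and 70.6% and cells with Gcg and Ppy in 70.8 and 77.9%. The share in no-hormone cells was 11.0% (interval 5.40 to 19.3) and 20.7% (12.9 to 30.4). The intervals of Sst-only cells (8.57 and 8.70%) and of Sst and Ppy cells (19.5 and 18.3%) overlapped these. In the Sst and Ppy group the richest cell held 23 Ddc UMIs, in library 2. Whether the Ddc of Sst cells is background was not tested. At 4000 UMIs per cell insulin-only cells still held Ddc in 69.2 and 73.7%, Gcg-only cells in 58.2 and 48.9% and Ppy-only cells in 48.1 and 41.2%, against 5.49 and 8.70% of no-hormone cells.

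Per cell, the median Ddc level was 6.56 and 7.61 UMIs per 10000 non-hormone UMIs of the cell in insulin-only cells, 3.16 and 2.58 in Gcg-only cells, 2.44 and 1.45 in Ppy-only cells and 0 in Sst-only cells. The cell with the most Ddc UMIs among the 4 single-hormone groups, 74, was a Gcg-only cell of library 2. In the no-hormone group 10 and 19 cells held Ddc, at median depths of 31858 and 16523 UMIs against 12504 and 14552 for the cells without it, and the 3 richest cells held 71.4 and 60.3% of the Ddc UMIs of the group. Their part in the no-hormone level was not tested.

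Gad1, which makes GABA, had the highest share of its UMIs in insulin-only cells among the 5 tested members. Its level there was 67.5 CPM in library 1 and 61.5 in library 2 (64.5 ± 4.28). Gcg-only cells gave 0.762 and 1.06 CPM (2 and 3 UMIs), cells with Gcg and Ppy 1.79 and 2.09, and no-hormone cells 3.14 and 0.463. Sst-only, Ppy-only, and Sst and Ppy cells gave 0 UMIs in both libraries, which allows up to 3.98, 1.05 and 1.38 CPM. The libraries of insulin-only cells were above all others, and the range of no-hormone cells covered those of Gcg-only and of Gcg and Ppy cells.

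On the log2 scale Gad1 stood 6.06 higher in insulin-only than in Gcg-only cells (SE 0.52, adjusted p = 3.26e-06 by edgeR). With library 1 or library 2 alone left out the value was 4.86 and 5.09, computed with a prior count of 2 added to the 2 or 3 UMIs of Gcg-only cells. They were at least 16.3-fold above Sst-only cells (adjusted p = 0.000192) and at least 61.9-fold above Ppy-only cells (adjusted p = 6.35e-06). Gad1 was detected in 68 of 182 insulin-only cells (37.4%, interval 30.3 to 44.8) and 71 of 190 (37.4%, 30.5 to 44.7), against 3.30% (3 of 91) and 1.09% (1 of 92) of no-hormone cells. The shares in Gcg-only cells, 2 of 182 and 3 of 174, were within the no-hormone intervals. At 4000 UMIs per cell the shares of insulin-only cells were 14.3 and 13.7%, and those of every other group compared were 0.

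Gad2, the other glutamate decarboxylase, gave 12 UMIs in all, in 4 cells of the hormone groups other than insulin only. These were 4 UMIs in 1 Gcg-only cell and 3 in 1 Ppy-only cell of library 1, and 3 and 2 UMIs in 1 Sst and Ppy cell of each library. In insulin-only cells it was at 0 UMIs in 372 cells, which allows up to 0.590 CPM. So the GAD transcript seen in insulin-only cells at this depth was that of Gad1.

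Maob, the monoamine-degrading oxidase, had its highest levels in insulin-only, Gcg-only, and Gcg and Ppy cells. Its level was 248 and 262 CPM in insulin-only cells (255 ± 9.28), 144 and 135 in Gcg-only cells (140 ± 6.66) and 109 and 116 in cells with Gcg and Ppy (113 ± 4.82). No-hormone cells gave 31.4 and 47.7 CPM, Sst-only cells 28.6 and 40.2, Ppy-only cells 20.6 and 34.0, and Sst and Ppy cells 24.2 and 26.5. The first 3 groups did not overlap one another or the rest. Among the 4 lower groups, each overlapped its neighbour in this order.

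Maob was higher in insulin-only than in Gcg-only cells by 0.90 on the log2 scale (SE 0.17, adjusted p = 0.000947 by edgeR), than in Sst-only cells by 3.09 (SE 0.27, adjusted p = 1.39e-06) and than in Ppy-only cells by 3.23 (SE 0.21, adjusted p = 4.23e-08). Gcg-only cells were above Sst-only cells by 2.19 (SE 0.28, adjusted p = 7.60e-05) and above Ppy-only cells by 2.33 (SE 0.21, adjusted p = 5.22e-06). Sst-only and Ppy-only cells differed by 0.14 (SE 0.35, adjusted p = 0.898). Maob was therefore the member that separated Gcg-only from Ppy-only cells, where Ddc did not pass the test.

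The share of cells with Maob was 78.6% (interval 71.9 to 84.3) and 80.5% (74.2 to 85.9) in insulin-only cells and 72.5 and 72.4% in Gcg-only cells, against 11.0 and 15.2% in no-hormone cells. Ppy-only cells had it in 35.2 and 41.2% and Sst-only cells in 17.1 and 26.1%, although the level of Ppy-only cells was not higher, and their median depths were 28785 and 30340 UMIs against 13123 and 13692. At 4000 UMIs per cell these shares were 5.56 and 10.3% against 8.57 and 8.70%, so no order is read from them. At that depth insulin-only cells had Maob in 41.2 and 38.4% and Gcg-only cells in 28.6 and 25.3%.

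**Figure D2:**
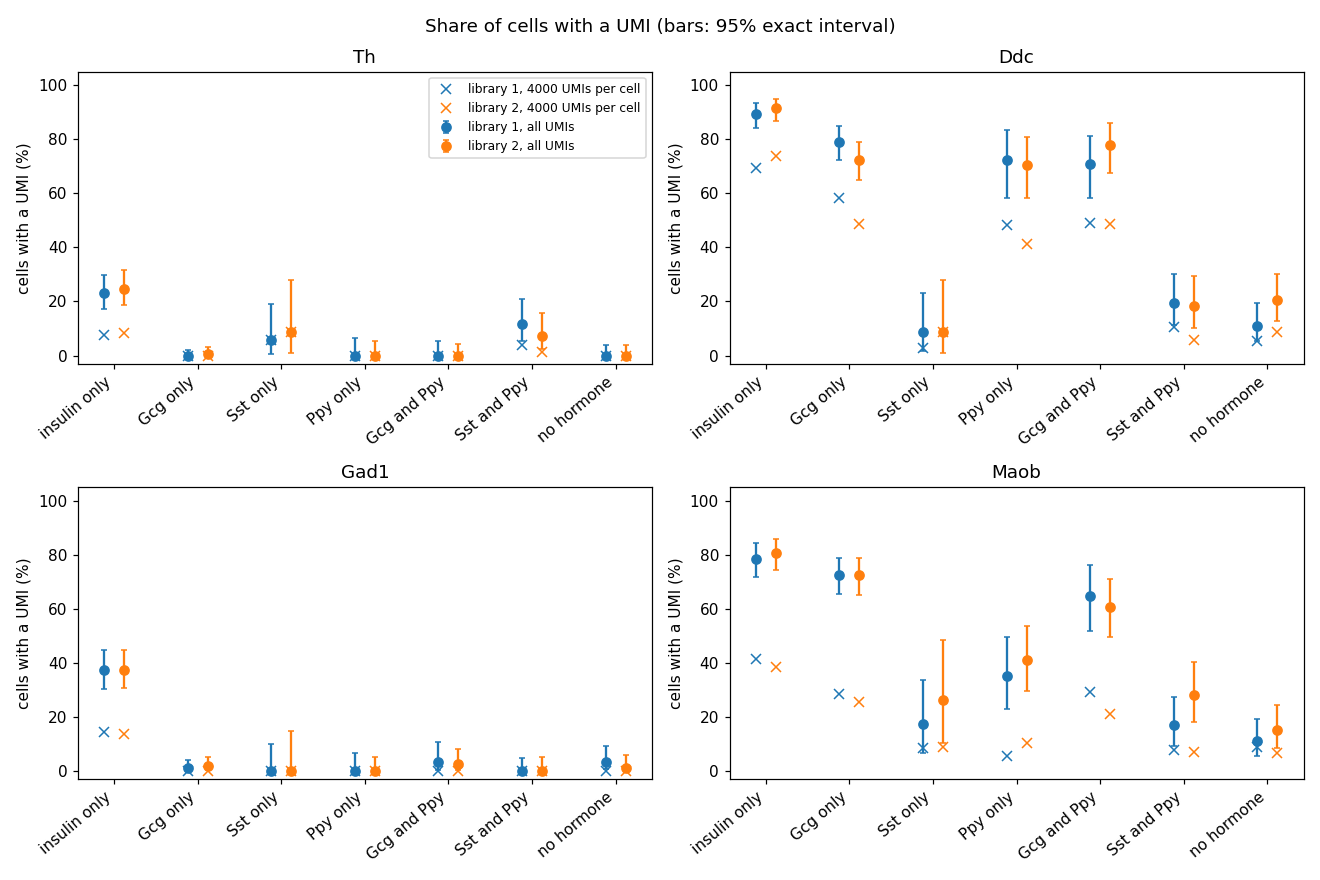
Share of cells with at least 1 UMI (vertical axis, percent) of Th, Ddc, Gad1 and Maob in 7 hormone groups and both libraries, with 95% Clopper-Pearson intervals as bars, and the share after thinning each cell to 4000 UMIs as crosses. For all 4 genes the intervals of insulin-only cells lie above those of no-hormone cells in both libraries.

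Slc18a2, the vesicular monoamine transporter VMAT2, was low in the 6 hormone groups compared. Its level was 2.58 and 5.90 CPM in insulin-only cells, 3.81 and 6.73 in Gcg-only cells, 0 and 6.7 in Sst-only cells, 0.859 and 3.52 in Ppy-only cells, 6.27 and 5.56 in Gcg and Ppy cells and 9.30 and 2.74 in Sst and Ppy cells. These ranges overlapped, except that Ppy-only cells lay below Gcg-only cells and below Gcg and Ppy cells. Insulin-only cells differed from Gcg-only cells by -0.30 (log2, SE 0.84, adjusted p = 0.850), from Sst-only cells by 0.77 (SE 1.55, adjusted p = 0.808) and from Ppy-only cells by 0.85 (SE 1.06, adjusted p = 0.638). Differences within these errors were not detectable at 177 UMIs. A UMI was seen in 3.85 and 5.79% of insulin-only cells and in 6.59 and 13.0% of no-hormone cells.

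The no-hormone cells gave Slc18a2 at 4.40 CPM in library 1 and 30.6 in library 2, and a single cell of library 2 stood apart. It held 37 Slc18a2 UMIs, 20.9% of all those counted, and was the deepest cell of the library with 177513 UMIs. Without it the library 2 level was 14.6 CPM, from 29 UMIs in 91 cells. The cell also held 26 Maob UMIs and 1 Ddc UMI, and 0 of Th, Gad1, Gad2, Tph1 and Tph2. Among the genes listed as sympathetic neuron markers it held 348 UMIs of Prph, 49 of Hand2 and 14 of Phox2a, but 0 of Slc6a2, and among the Schwann cell markers 13 UMIs of S100b. The sympathetic neuron markers summed to between 0 and 1.79 CPM in the 6 hormone groups compared, and to 3.77 and 338 CPM in no-hormone cells.

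The tryptophan hydroxylases were rare. Tph1 gave 1 UMI, in an insulin-only cell of library 2 with 40711 UMIs. Tph2 gave 5 and 6 UMIs in as many insulin-only cells (2.75 and 3.16% of them, 1.85 and 2.53 CPM), 5 and 0 UMIs in Sst-only cells, 4 and 3 in Sst and Ppy cells and 1 and 0 in Gcg-only cells. It was at 0 in Ppy-only, Gcg and Ppy, and no-hormone cells. The median depth of the Tph2-positive insulin-only cells was 52968 and 24329 UMIs, against 19318 and 17063 of those without it. In summed UMIs Tph2 was higher in insulin-only than in Gcg-only cells by a ratio of 11.8 (95% counting interval 1.71 to 507) and in Sst-only than in Gcg-only cells by 36.2 (4.05 to 1710), the latter from 5 UMIs in 3 cells of library 1. Neither gene was tested, and libraries with 0 to 6 UMIs a group allow no further order.

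Counted over the 5 tested members, insulin-only cells were called against Gcg-only cells for 4, all of them higher, where 25.0% of all genes tested were called, 12.8% higher and 12.2% lower. Against Sst-only cells 3 were called, all higher, where 14.5% of genes were called, 7.48% higher and 6.97% lower. Against Ppy-only cells 4 were called, all higher, where 20.2% of genes were called, 10.3% higher and 9.87% lower. Since members had to be high in at least 1 group to be tested, these counts describe 5 genes and support nothing about the list. Slc18a2 was called in none of these comparisons, and Th was the tested member not called against Sst-only cells besides it.

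Gcg-only cells differed from Sst-only cells in 3 members, Ddc and Maob higher and Th lower, where 12.3% of genes were called, 6.01% higher and 6.31% lower. From Ppy-only cells they differed in 1, Maob, where 9.49% of genes were called, 4.72% higher and 4.77% lower. Sst-only cells differed from Ppy-only cells in 2, Th higher and Ddc lower, where 9.08% of genes were called, 4.67% higher and 4.41% lower. The median log2 fold change of all genes tested was within 0.05 of 0 in each comparison. With hormone UMIs counted in the library size the share of higher genes among the calls of the 6 comparisons, in the order given, changed from 51.3 to 22.6%, 51.7 to 6.74%, 51.1 to 36.1%, 48.8 to 16.1%, 49.8 to 74.0% and 51.5 to 93.2%, while each called member kept its direction.

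**Figure D3:**
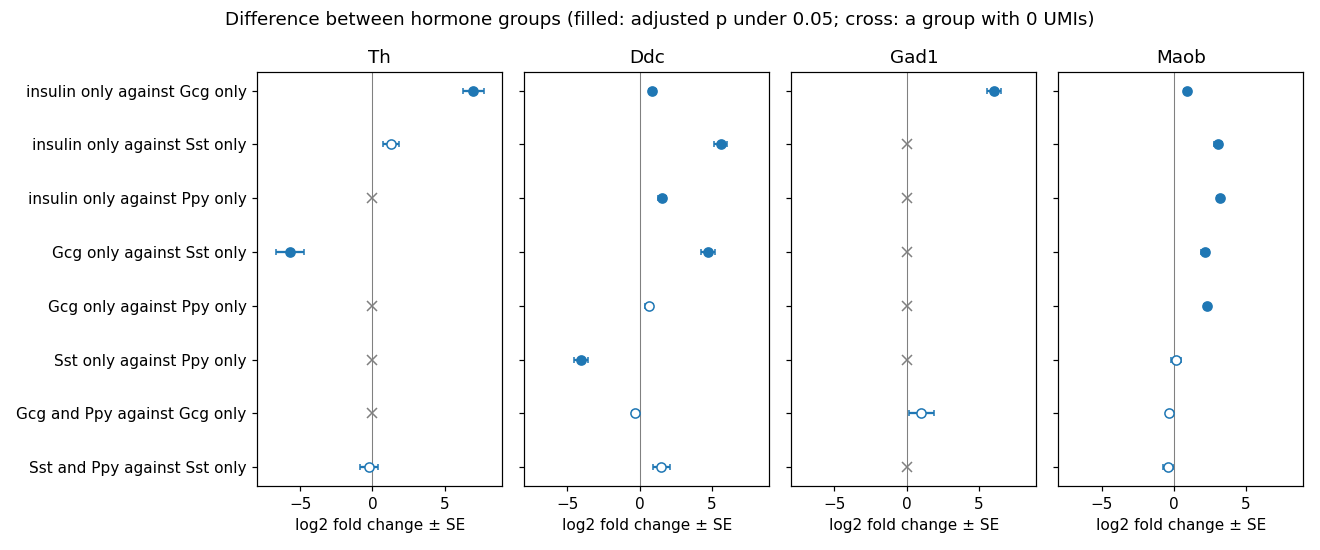
Log2 fold change from edgeR, with an SE derived from its F statistic (horizontal axis), of Th, Ddc, Gad1 and Maob in 8 comparisons of hormone groups. Points are filled where the adjusted p is under 0.05, and a cross at 0 marks where 1 group has no UMI and no fold is drawn. Maob and Ddc are higher in insulin-only cells against all 3 other single-hormone groups, and open points in the lowest 2 lines show that no member was called when Ppy joined Gcg or Sst.

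Cells with a second hormone were compared with those of the first hormone alone, to see whether the members follow Gcg and Sst or Ppy. Cells with Gcg and Ppy differed from Gcg-only cells in 0 of the 5 members by edgeR (0 also at an unadjusted p under 0.05 and 0 by DESeq2), where 0.0401% of genes were called (844 genes at an unadjusted p under 0.05, and 13 calls by DESeq2). Ddc differed by -0.29 (SE 0.27, adjusted p = 0.987) and Maob by -0.31 (SE 0.18, adjusted p = 0.945). Cells with Sst and Ppy differed from Sst-only cells in 0 members by edgeR (1, Ddc, at an unadjusted p under 0.05 and 0 by DESeq2), where 0.0134% of genes were called (971 at an unadjusted p under 0.05, and 6 by DESeq2).

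Within the Sst cells, Ddc was 1.52 higher on the log2 scale with Ppy than without (SE 0.61, adjusted p = 0.718), Th differed by -0.22 (SE 0.62, adjusted p = 0.990) and Maob by -0.36 (SE 0.36, adjusted p = 0.924). A direct test of whether Ppy went with a different change in Gcg cells than in Sst cells called 0 members, and the Ddc value of that edgeR fit was -1.81 (SE 0.67, adjusted p = 0.821). None of these 5 genes was therefore shown to change, or to stay the same, where Ppy joined a first hormone.

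Many insulin-only cells held several of the genes at once. Of the 28 pairs of members, 6 were found together in at least 5% of insulin-only cells in both libraries, all among Th, Ddc, Gad1 and Maob. Ddc and Maob were together in 127 cells of library 1 (69.8%) and 142 of library 2 (74.7%), Ddc and Gad1 in 66 (36.3%) and 70 (36.8%), and Gad1 and Maob in 57 (31.3%) and 60 (31.6%). Th joined Ddc in 40 (22.0%) and 42 (22.1%) cells, Maob in 33 (18.1%) and 35 (18.4%), and Gad1 in 14 of 182 (7.69%) and 19 of 190. The cells of a library are not replicates, so these shares have no test.

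All of Th, Ddc, Gad1 and Maob were seen in 11 insulin-only cells in library 1 (6.04%, 3.06 to 10.6) and in 15 in library 2 (7.89%, 4.49 to 12.7). Exactly 3 of them were seen in 36.8 and 34.2% of cells, 2 in 38.5 and 43.7%, 1 in 17.0 and 12.6% and 0 in 1.65 and 1.58%. Outside insulin-only cells the pair of Ddc and Maob was the common one, in 103 (56.6%) and 91 (52.3%) Gcg-only cells, 30 (46.2%) and 41 (47.7%) Gcg and Ppy cells and 12 (22.2%) and 21 (30.9%) Ppy-only cells.

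Among insulin-only cells, Ddc was seen in 97.1% of Gad1-positive against 85.1% of Gad1-negative cells in library 1 and in 98.6 against 87.4% in library 2. Maob was in 83.8 against 75.4% and 84.5 against 78.2%. Gad1-positive cells were also deeper, with medians of 22314 and 19333 UMIs against 18711 and 16579, and their median insulin share was 41.2 and 42.1% against 36.5 and 41.5%. Thinned to 4000 UMIs, Ddc was in 80.8 and 96.2% of the Gad1-positive cells against 67.3 and 70.1% of the negative ones. The former rest on few cells, 26 in library 1 and 26 in library 2. Seen from Ddc, Gad1 was in 40.5 and 40.2% of the Ddc-positive cells and in 10.5 and 6.25% of the 19 and 16 cells without Ddc. The cells without Ddc also had a lower median insulin share, 33.0 and 32.6% against 39.3 and 41.9%.

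For Th the direction differed between the libraries. Th-positive insulin-only cells held Ddc in 95.2 against 87.9% of cells in library 1 and 89.4 against 92.3% in library 2, and Gad1 in 33.3 against 38.6% and 40.4 against 36.4%. Maob was in 78.6% of both kinds of cell in library 1 and in 74.5 against 82.5% in library 2. The Th-positive cells were deeper, at medians of 22361 and 19920 UMIs against 19019 and 16599, and had a median insulin share of 36.6 and 40.4% against 39.6 and 42.1%. At 4000 UMIs per cell 14 and 16 insulin-only cells still held Th, too few to set shares of a second gene against each other.

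**Figure D4:**
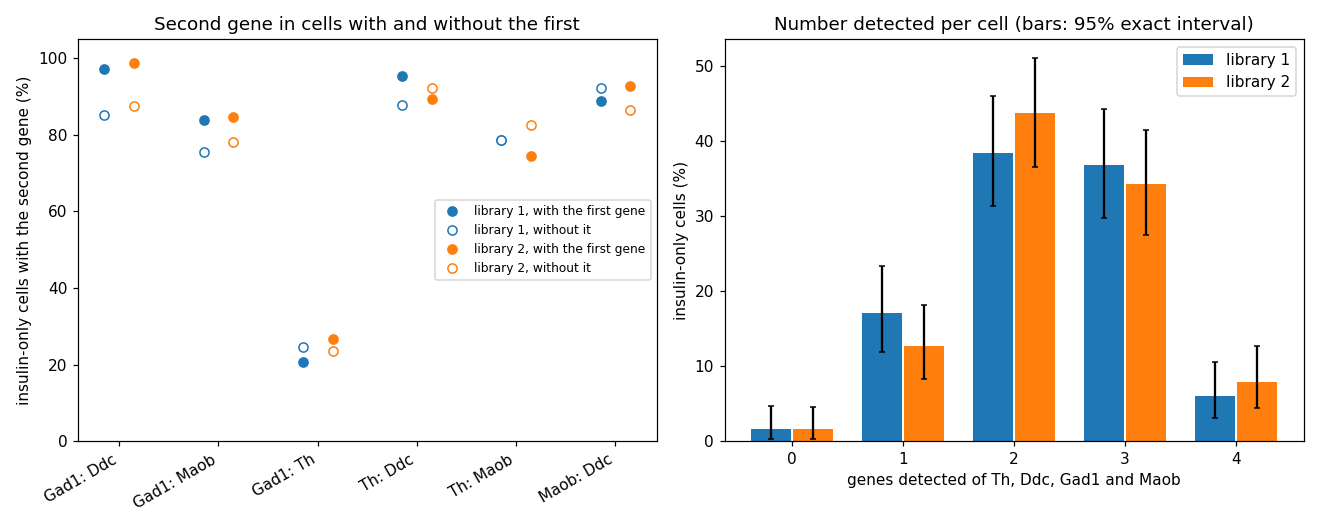
Left, percent of insulin-only cells with the second gene of each named pair among cells with (filled) and without (open) the first gene, by library. Right, percent of insulin-only cells with 0 to 4 of Th, Ddc, Gad1 and Maob detected, with 95% exact intervals: 11 and 15 cells held all 4, and Ddc was in 97.1 and 98.6% of Gad1-positive against 85.1 and 87.4% of Gad1-negative cells.

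The genes around the members were counted from 6 lists of pathway genes, leaving out the members. Of 12 genes for catecholamine synthesis, handling and receptors, 6 were counted and 3 tested, and 0 were called by edgeR or by DESeq2 in any of the 8 comparisons, with at most 1 at an unadjusted p under 0.05 in each. Dbh and Pnmt, which turn dopamine into noradrenaline and adrenaline, and the dopamine transporter Slc6a3 are among the 6 genes absent from the 33038 genes counted in either library. The list's median log2 fold change lay between -1.14 and 0.96 in the 6 comparisons of single hormones.

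Of 8 genes that make, regenerate or regulate tetrahydrobiopterin, the cofactor of Th, Tph1 and Tph2, 7 were tested. In insulin-only cells 3 were called higher and 0 lower than in Gcg-only cells (Gch1, Qdpr and Spr), where 25.0% of all genes were called, 1 higher and 1 lower than in Sst-only cells (14.5% of all genes) and 2 higher and 0 lower than in Ppy-only cells (20.2%). In Gcg-only cells 0 were called higher and 3 lower than in Sst-only cells (12.3%). With 7 genes these counts are read for the named genes only. The list's medians lay between -0.59 and 0.43 against medians of all genes within 0.05 of 0.

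Gch1, GTP cyclohydrolase, the first and rate-limiting enzyme of that route, was 201 ± 26.6 CPM in insulin-only cells, 198 ± 3.94 in Sst-only, 121 ± 9.89 in Gcg-only and 64.0 ± 9.04 in Ppy-only cells. It was lower in Ppy-only cells than in each of the others, by -0.92 on the log2 scale against Gcg-only (adjusted p = 0.00163), -1.51 against Sst-only (adjusted p = 5.49e-05) and -1.70 against insulin-only cells (adjusted p = 1.60e-06). The 2 groups with the highest Gch1 were also the 2 single-hormone groups with more than 1 Th UMI.

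Spr, sepiapterin reductase, the last step of the route, was 95.9 ± 1.93 CPM in Sst-only cells, 47.0 ± 11.6 in insulin-only, 35.3 ± 7.34 in Ppy-only and 25.7 ± 5.68 in Gcg-only cells. Sst-only cells were above these by 0.87 (adjusted p = 0.0334), 1.31 (adjusted p = 0.00629) and 1.76 (adjusted p = 0.000339). Qdpr, which regenerates the cofactor, was 187 ± 5.19 CPM in insulin-only cells against 150 ± 12.1 in Ppy-only, 128 ± 5.52 in Sst-only and 119 ± 7.87 in Gcg-only cells, with differences of 0.37 (adjusted p = 0.0423), 0.70 (adjusted p = 0.00409) and 0.68 (adjusted p = 0.000548). With hormone UMIs counted in the library size the Qdpr difference from Sst-only cells turned to -0.04 (adjusted p = 0.879) and that from Ppy-only cells was 0.22 (adjusted p = 0.241). DESeq2 did not call Spr in Sst-only against insulin-only cells (adjusted p = 0.0595) or Qdpr in insulin-only against Ppy-only cells (adjusted p = 0.0882).

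Of 20 genes for serotonin transport, receptors and regulators besides the members, 16 were counted and 6 tested. Fev, a transcription factor of serotonin neurons, was the gene called against all 3 other single-hormone groups. Its level was 2.90 ± 1.12 CPM in insulin-only cells, 58.5 ± 5.09 in Gcg-only, 64.4 ± 22.7 in Sst-only and 60.5 ± 20.1 in Ppy-only cells, lower in insulin-only cells by -4.24, -4.21 and -4.25 on the log2 scale (adjusted p = 1.16e-06, 2.43e-05 and 2.32e-06). Lmx1b was called higher in insulin-only than in Ppy-only cells by edgeR but not by DESeq2 (adjusted p = 0.134), and 0 genes of the list were called in the other 3 comparisons of single hormones. The list's medians lay between -0.10 and 2.00.

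The 11 other genes of GABA synthesis, breakdown and transport were all counted, and 6 were tested. Abat, GABA transaminase, was called higher in insulin-only than in Gcg-only cells, and Glud1, which turns glutamate over in mitochondria, was called lower in insulin-only cells than in Gcg-only and Ppy-only cells. Glud1 was 219 ± 9.48 CPM in Gcg-only cells against 89.5 ± 4.44 in insulin-only, 139 ± 26.0 in Sst-only and 156 ± 5.63 in Ppy-only cells, higher by 1.26 (adjusted p = 6.65e-06), 0.80 (adjusted p = 0.00361) and 0.51 (adjusted p = 0.0286). With hormone UMIs in the library size the Glud1 difference from Sst-only cells had an adjusted p of 0.105. Slc32a1, the vesicular GABA transporter, had 0 UMIs in all 7 groups. The list's medians lay between -0.29 and 0.44.

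Of 18 GABA receptor genes 15 were counted and 6 tested. Gabbr2, a subunit of the GABA-B receptor, was 62.7 ± 4.17 CPM in insulin-only cells, 9.95 ± 1.55 in Gcg-only, 8.11 ± 0.687 in Ppy-only and 1.68 ± 2.37 in Sst-only cells. It was higher in insulin-only cells by 2.69 (adjusted p = 4.34e-05), 3.01 (adjusted p = 6.79e-05) and 5.63 (adjusted p = 0.000143). GABA-A subunit genes were called the other way: Gabrb1 lower in insulin-only than in Gcg-only and Ppy-only cells, Gabra4 lower than in Ppy-only cells (not with DESeq2, adjusted p = 0.0898), and Gabrg3 lower than in Sst-only cells. The list's medians lay between -1.58 and 1.30.

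Of 5 genes for histamine, trace amines and amino acid uptake besides Slc18a2, 4 were tested. Slc7a5, the light chain of the carrier that brings in L-DOPA and aromatic amino acids, was 41.0 ± 6.19 CPM in insulin-only cells against 20.1 ± 3.37 in Gcg-only, 19.0 ± 3.79 in Ppy-only and 11.6 ± 2.21 in Sst-only cells. It was higher there by 1.07 (adjusted p = 0.0258), 1.14 (adjusted p = 0.0327) and 1.94 (adjusted p = 0.0220). None of these calls held with hormone UMIs in the library size (adjusted p = 0.121, 0.0721 and 0.114) or with DESeq2 (adjusted p = 0.153, 0.151 and 0.0552). Slc3a2, its heavy chain, was 62.0 ± 11.8 CPM in Sst-only cells, lower than in Gcg-only cells (158 ± 19.6) by -1.44 (adjusted p = 0.000116), than in insulin-only cells (119 ± 13.1) by -1.07 (adjusted p = 0.00171) and than in Ppy-only cells (104 ± 7.65) by -0.83 (adjusted p = 0.0189). The last 2 calls were lost with hormone UMIs in the library size (adjusted p = 0.242 and 0.468), and the last also with DESeq2 (adjusted p = 0.0685). The list's medians lay between -0.30 and 0.49, and in the comparisons of cells with a second hormone 0 genes of any of the 6 lists were called by edgeR or by DESeq2, with at most 1 in each list at an unadjusted p under 0.05.

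**Figure D5:**
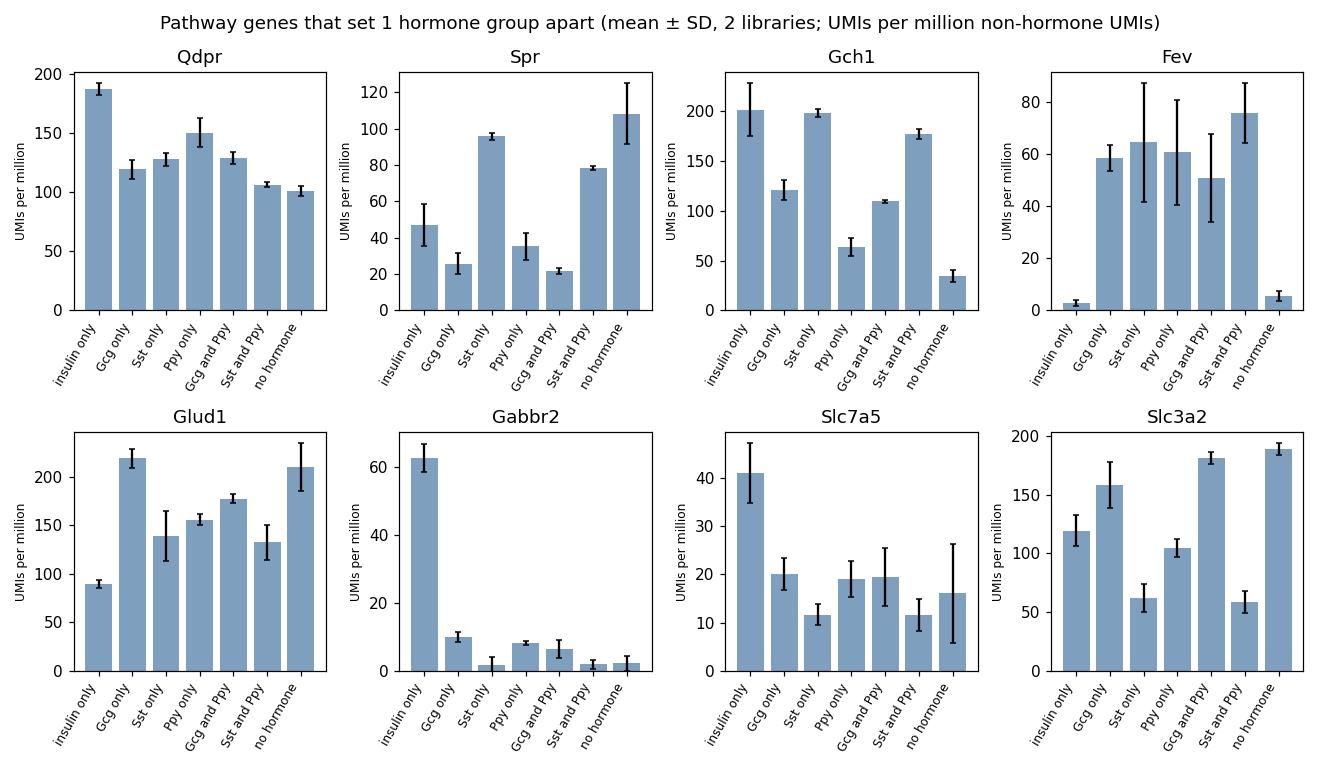
Mean level ± SD over 2 libraries (vertical axis, CPM without hormone UMIs, from 0) of the 8 pathway genes that were called in 1 direction for 1 single-hormone group against the other 3, in 7 hormone groups. Qdpr, Gabbr2 and Slc7a5 were highest in insulin-only cells and Fev lowest, Spr was highest and Slc3a2 lowest of the single-hormone groups in Sst-only cells, Gch1 was lowest of them in Ppy-only and Glud1 highest in Gcg-only cells.

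The genes whose levels ran most like those of each member over the 14 sums of library and group were found among 11262 genes by Pearson's r of log2(CPM + 10), a description over sums that share their libraries. For Gad1 they were Gm17767 (r = 0.995), Cox6a2 (0.994) and Mafa (0.993), and 0.542% of the genes had an r above 0.9. For Th they were Gm50144 (0.982), Gm43872 (0.978) and Gm43500 (0.975), each of which overlaps a longer gene (Sil1, Cntnap2 and Mlxipl), and 0.515% of the genes had an r above 0.9. For Ddc they were Slc35d3 (0.973), Hip1r (0.962) and Skap1 (0.952), with 0.133% above 0.9, and for Maob Spc25 (0.981), Dapl1 (0.954) and Nell1 (0.944), with 0.0799%. For Slc18a2 they were Adcyap1r1 (0.891), Cxcl10 (0.882) and Kcnq3 (0.881), with 0 genes above 0.9, and its pattern rests on the library 2 no-hormone sum that holds the cell with 37 UMIs.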

How the data were processed

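UMI counts per gene and cell were deposited by the authors, 1 table per library, made from poly(A) RNA with RevGel-seq and the authors' Cytonaut pipeline with UMI-tools (reads on GRCm38, exons counted, duplicates removed, cells kept above the knee). No other filter was needed: all 1483 cells had at least 200 genes and under 20% mitochondrial UMIs. Doublets were called with Scrublet in scanpy 1.11.5 (8 in each library) and kept. The table of library 1 has no row for Tph1, set to 0. Of 33038 gene IDs, 32971 were found in the GRCm38 annotation.

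Counts were summed per library and hormone group (at least 20 cells in each library) and tested with edgeR 4.0.16 (R 4.3.3): TMM, low-count filter by group, quasi-likelihood, 7 groups and 14 sums in 1 fit with 7 residual degrees of freedom, Benjamini-Hochberg over 14955 genes in each of 8 contrasts, threshold 0.05. The coefficient of variation between libraries was 15.4%. Each SE is the absolute log2 fold change divided by the square root of the F statistic of edgeR, so it is approximate. An exact permutation test of 2 libraries against 2 cannot go below p = 0.333. Shares have Clopper-Pearson intervals (scipy 1.17.1), and 0 UMIs is given a limit of 3 counts. Folds taken from that limit leave out the counting error of the higher group. The edgeR test was also run on simulated counts with a spread below that 15.4%. The genes changed there were picked by a minimum expected count, so this run does not bear on calls from few UMIs. The members and gene lists were chosen with earlier results of these data known. Every member is named, pathway genes are named where called in 1 direction for 1 single-hormone group against the other 3, other pathway genes named were chosen after their values were seen, and the 3 most alike genes are given for each tested member. Alternatives were DESeq2 1.42.0, other scalings, filters, hormone thresholds, thinning, equal cell numbers, a library block and leaving out each sum or library. Some genes of the lists are not reported here.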

Additional observations from a re-analysis of the deposited data

Results flagged for a closer look

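Cells with insulin plus another hormone (20 of them with insulin and Ppy) and cells with both Gcg and Sst entered no comparison. Ddc and Maob were detected in both kinds of cell above the level of no-hormone cells in both libraries. Among the 64 cells with insulin plus another hormone, Ddc was seen in a mean of 86.3% of cells over the libraries (83.8 and 88.9%) and Maob in 57.5% (59.5 and 55.6%). In the 29 cells with Gcg and Sst, Ddc was seen in 66.9% (9 of 12 and 10 of 17 cells) and Maob in 57.4% (6 of 12 and 11 of 17). The shares in no-hormone cells were 11.0 and 20.7% for Ddc and 11.0 and 15.2% for Maob. Slc18a2 was seen in 1 of 12 and 5 of 17 cells with Gcg and Sst, at 9.80 and 22.3 CPM from 3 and 8 UMIs. No-hormone cells gave it at 4.40 and 30.6 CPM, and the intervals of the shares overlapped in both libraries. Th was seen in 18.9 and 11.1% of the cells with insulin plus another hormone and in 4 of 12 and 2 of 17 cells with Gcg and Sst, against 0 in no-hormone cells, and Gad1 in 10.8 and 22.2% of the former and 0 of the latter, but their intervals overlapped those of no-hormone cells in at least 1 library.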

How the results depend on the processing

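Of the 17 called log2 fold changes of members, 260 of 260 alternative fits with a test kept the sign and 5 lost the call, all of them Ddc in insulin-only against Gcg-only cells, given above (adjusted p from 4.18e-09 to 0.151 over 16 fits). With 23 cells per sum it was 2 instead of 4 for insulin-only against Gcg-only cells (Gad1 and Maob), 3 instead of 4 for insulin-only against Ppy-only, 2 instead of 3 for Gcg-only against Sst-only and 1 instead of 2 for Sst-only against Ppy-only cells (Ddc), Th then failing the filter. Without the low-count filter it was 2 instead of 1 for Gcg-only against Ppy-only cells and 1 instead of 0 for Sst and Ppy against Sst-only cells, Ddc being the gene added (adjusted p = 0.000430 and 0.0296). Leaving out single sums of a library and group gave 1 to 2 for Gcg-only against Ppy-only cells. The fit with library as a replicate block, where the shared number marks 1 library, changed no count of members called: it stayed at 4, 3, 4, 3, 1, 2, 0 and 0 in the 8 comparisons in the order given. Over all genes, equal cell numbers gave 208 to 916 calls per comparison of single hormones against 1358 to 3739, and hormone UMIs in the library size gave 5179 against 2161 for insulin-only against Sst-only cells. That scaling moved the median log2 fold change of all genes to between -0.69 there and 0.53 in Sst-only against Ppy-only cells, where it gave 3506 calls against 1358. Without the low-count filter the comparisons with a second hormone gave 153 and 66 calls against 6 and 2. Their calls also rose when a no-hormone sum was left out of the fit, in which all groups share an estimate of the spread. Depth limits Gad2, Tph1, Tph2 and Slc18a2, with 1 to 177 UMIs each. At a hormone threshold of 0.5% Sst-only cells were too few to be fitted, and leaving out a whole library leaves no residual degrees of freedom, so it gave values with no test. Of 28 pairs, 6 were found together in 5% of insulin-only cells, 5 from 2 UMIs and 4 after thinning.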
